A study of Mus musculus with 6 samples.

Results

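The MHC class II genes and the gene of the invariant chain were followed in RNA sequencing of naïve CD4 T cells, a population that is defined by a T cell receptor that reads class II molecules on other cells. The 10 members were taken by symbol: H2-Aa, H2-Ab1, H2-Eb1, Cd74, Ciita, H2-DMa, H2-DMb1, H2-DMb2, H2-Oa and H2-Ob. They are 10 of the 46983 genes in the count tables. There were 3 control libraries and 3 Rnmt cKO libraries. RNMT is the enzyme that methylates the guanosine cap at the start of messenger RNA, and the comparison asks which transcripts depend on it in resting T cells. Control animals were Rnmt fl/fl CD4cre -, with loxP sites around an exon of Rnmt and no Cre. Rnmt cKO animals were Rnmt fl/fl CD4cre +, with the same alleles and a Cre transgene under Cd4 regulatory sequence, so that a deletion is made in T cells and the transgene and the deletion cannot be told apart. All animals were males on a C57BL/6J background, their age is not given in the sources used here, and both groups carried the floxed alleles. Cells were taken from lymph nodes by flow cytometry with a gate for TCRb, CD4 and CD62L on cells that were negative for CD44 and for the dead-cell dye DAPI. As listed, the gate named no B cell, dendritic cell or macrophage protein to be left out.

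MHC class II molecules are pairs of an alpha and a beta chain that carry peptides from endosomes to the surface of B cells, dendritic cells and macrophages, where CD4 T cells read them. New pairs are held by the invariant chain until H2-M swaps the last piece of that chain for a peptide, and H2-O restrains H2-M. All of these genes share a promoter module that binds RFX, CREB and NF-Y proteins and is switched on by the coactivator CIITA. Mouse T cells are known to make little or no class II protein of their own.

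The libraries held 8873413 to 11277764 sense counts on genes. Uniquely mapped reads that lay in no gene made up 31.8% to 47.9% of each library, with control 1, control 2 and Rnmt cKO 3 under 40% and control 3, Rnmt cKO 1 and Rnmt cKO 2 above it. Every library was counted as 1 replicate, since the study describes 3 control and 3 Rnmt cKO mice. The chi-square of each pair within a group was 3.79 to 25.4 per degree of freedom, above that of sampling alone. It does not tell differences between animals from those between library preparations. Rnmt, the targeted gene, was at 56.02 ± 3.94 CPM in controls and lower, at 35.3 ± 7.88 CPM, in Rnmt cKO cells (SD, n = 3 each), with no overlap between groups, and counts over the whole gene do not measure the loss of 1 exon. CPM are counts scaled to a common library size with TMM factors. T cell markers were high in every library, with Cd4 at 657 to 909 CPM and Cd3e at 137 to 163 CPM, which fits the label of the cells.

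Among the 10 members, 5 were higher and 1 was lower in Rnmt cKO cells. The higher genes were Ciita, Cd74, H2-Aa, H2-Eb1 and H2-DMb2, with log2 fold changes of 0.62 to 1.01, and the lower gene was H2-Ob with -0.79. The other 4, H2-Ab1, H2-DMa, H2-DMb1 and H2-Oa, did not pass the edgeR exact test at a Benjamini-Hochberg adjusted p of 0.05. Over all 12336 genes tested, 8.0% were higher and 6.84% were lower by this test. The 5 of 10 members that were higher stand against the first of these shares, and the 1 of 10 that was lower is near the second. The median log2 fold change was 0.58 over the members and 0.01 over all genes tested. All 10 members passed the filter of more than 1 CPM in at least 3 libraries, and none passed it through 1 group alone.

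Every Rnmt cKO library lay above every control for 4 members, H2-Aa, H2-Eb1, Ciita and H2-DMb2, where 16.6% of all genes tested did so. For 1 member, H2-Ob, every Rnmt cKO library lay below every control, which 14.9% of all genes tested did. The groups overlapped for the remaining 5. Rnmt cKO 2 was the highest library for 7 of the 10 members and control 3 was the lowest for 7, so the spread within a group was shared by many members.

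**Figure D1:**
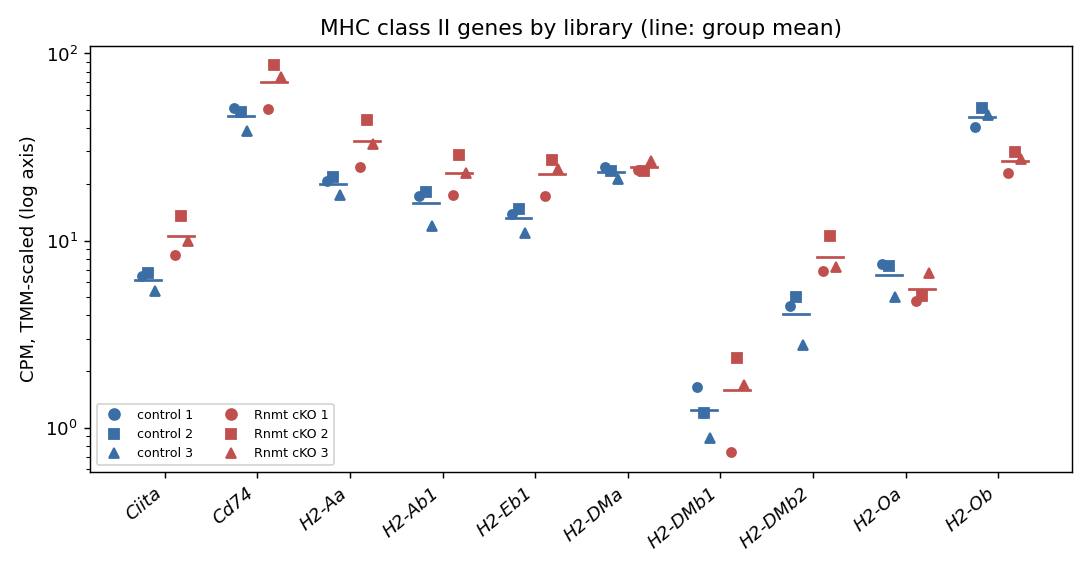
Level of each of the 10 genes in each library, in TMM-scaled CPM on a log axis. Points are libraries, with 1 shape for each replicate number, and lines are group means (n = 3). H2-Ob is the gene for which all Rnmt cKO libraries lie below the controls, and Rnmt cKO 2 is the top point for most other genes.

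**Figure D2:**
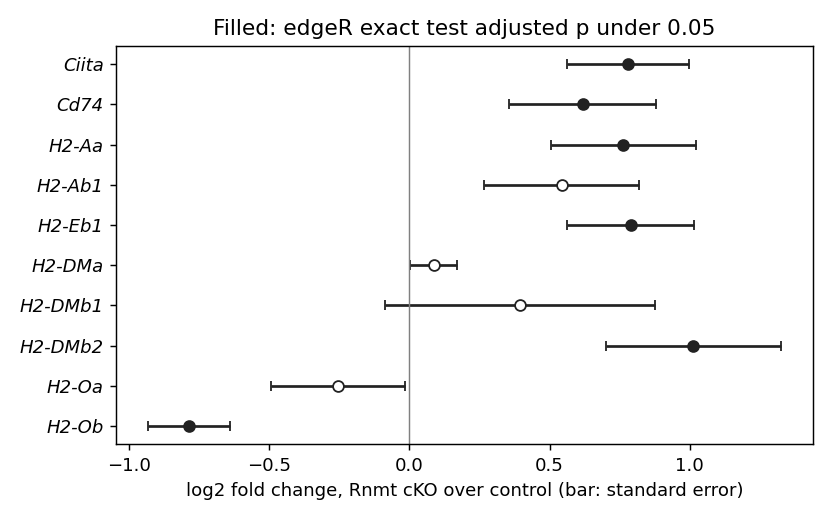
Log2 fold change of each gene, Rnmt cKO over control, with its standard error (n = 3 in each group). Filled points passed the edgeR exact test at an adjusted p of 0.05. The 5 filled points to the right run from 0.62 for Cd74 to 1.01 for H2-DMb2, and H2-Ob lies alone to the left at -0.79.

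Of the 10 members, 8 lie in the class II region on chromosome 17 from 34092340 to 34316674 of the mm10 genome. Because the genes are known for a shared promoter module, the RefSeq promoter windows were read for its letters. Each window runs from 250 bases before to 50 bases after a start site, and 7 members had one. The Y box, which NF-Y binds, was searched as GATTGG, the complement of CCAAT with 1 more base, and was found on either strand in all 7 of these members and in 16.1% of 32851 windows. For the X box, which RFX binds, the core AGNNACNGA was found in 4 of the 7 and in 17.7% of all windows. A stricter pattern asked for the same Y box and, 15 to 35 bases before it on the same strand, the letters GCAAC. In their place GTAAC was also taken, as was TTAAC. These letters were chosen after the sequences had been read. The pair was found in 6 of the 7 members, which follows in part from that choice and is no contrast with the 0.673% of all windows that hold it. The member without it was H2-DMa. The 6 stretches are shown so that genes whose RNA moved differently can be compared. They are from RefSeq on GRCm38.p6, written 5′ to 3′ in the direction of the gene, with the X box letters and the Y box in capitals.
H2-Aa (chr17:34287859-34287914, minus strand): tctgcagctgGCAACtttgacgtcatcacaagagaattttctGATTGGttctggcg
H2-Eb1 (chr17:34305766-34305820, plus strand): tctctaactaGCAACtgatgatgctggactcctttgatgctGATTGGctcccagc
H2-DMb1 (chr17:34153087-34153142, plus strand): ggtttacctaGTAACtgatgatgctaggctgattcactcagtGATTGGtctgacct
H2-DMb2 (chr17:34145116-34145171, plus strand): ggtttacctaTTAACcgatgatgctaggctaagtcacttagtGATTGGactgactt
H2-Oa (chr17:34092293-34092348, plus strand): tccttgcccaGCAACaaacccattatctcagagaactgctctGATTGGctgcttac
H2-Ob (chr17:34238808-34238860, plus strand): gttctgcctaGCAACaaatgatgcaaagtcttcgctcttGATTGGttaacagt

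The boxes keep their distance from each other. The gap between the capitals was 27 bases in H2-Aa, H2-DMb1, H2-DMb2 and H2-Oa, 26 bases in H2-Eb1 and 24 bases in H2-Ob. The Y box began 44 to 91 bases before the start site, nearest in H2-Oa and farthest in H2-DMb2. H2-Aa, H2-Eb1 and H2-DMb2 were higher, H2-Ob was lower, and H2-DMb1 and H2-Oa did not pass the test, so genes with the pair of boxes stood in each class. A match of letters is a description and does not show that a factor was bound.

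**Figure D3:**
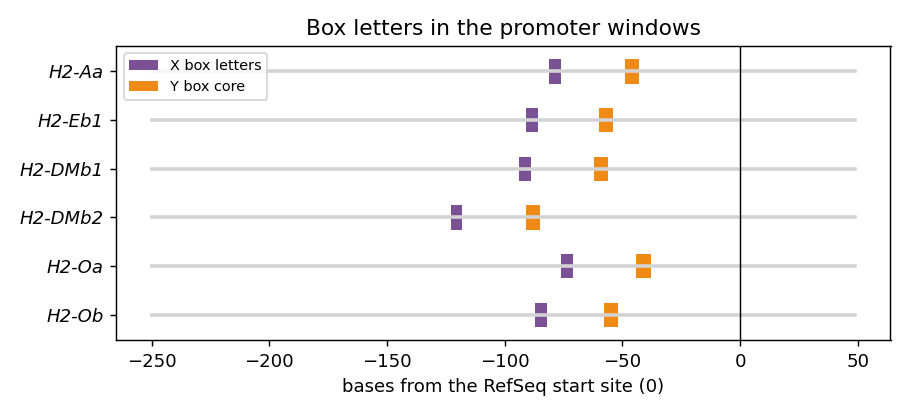
Place of the X box letters and the Y box core in 6 promoter windows, in bases from the RefSeq start site, with the window as a grey line. The Y box begins between 44 and 91 bases before the start in all 6, and a gap of 24 to 27 bases parts it from the X box letters upstream.

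The classical pair came first, since it is the molecule that T cells read. H2-Aa encodes the alpha chain of I-A, the class II molecule of C57BL/6 mice. Its counts were 177, 220 and 159 in controls against 235, 526 and 368 in Rnmt cKO, or 20.8, 22.0 and 17.6 CPM against 24.8, 44.4 and 33.0 CPM. All Rnmt cKO libraries were above all controls, with Rnmt cKO 1 only a little above control 2. The log2 fold change was 0.76 ± 0.26 (SE), a 1.70-fold rise, with an edgeR exact test adjusted p of 0.00187. Over the 15 alternatives with a test it stayed past the threshold, with a log2 fold change of 0.52 to 0.94 and a largest adjusted p of 0.0409.

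H2-Ab1 encodes the beta chain that pairs with H2-Aa. Its level was 17.3, 18.3 and 12.0 CPM in the controls and 17.5, 28.8 and 22.9 CPM in the Rnmt cKO libraries. Rnmt cKO 1 lay between the controls, so the groups overlapped. A log2 fold change of 0.54 ± 0.28 (SE) came with an adjusted p of 0.0632 in the exact test. Without Rnmt cKO 1 it was 0.70 with an adjusted p of 0.00784, and the adjusted p ran from 0.00784 to 0.378 over the alternatives. Per kilobase, the ratio of H2-Aa to H2-Ab1 was 0.871 ± 0.0998 in controls and 0.991 ± 0.0459 in Rnmt cKO libraries (SD, n = 3 in each group), with overlapping groups, so no departure of the chains from each other was seen beyond the spread of the libraries.

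H2-Eb1 encodes the beta chain of I-E, whose alpha chain gene is broken in C57BL/6 mice. Its counts were 118, 147 and 100 in controls against 164, 320 and 268 in Rnmt cKO, at 13.9, 14.7 and 11.0 CPM and at 17.3, 27.0 and 24.0 CPM. The groups did not overlap. H2-Eb1 rose by a log2 fold change of 0.79 ± 0.23 (SE), with an adjusted p of 0.000712 in the exact test, and stayed past the threshold in all 15 alternatives with a test, up to an adjusted p of 0.0448. The pseudogene of the missing partner, H2-Ea-ps, held 0 counts in all 6 libraries, where 3 counts per library is taken as the floor.

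Cd74 encodes the invariant chain, which fills the groove of new class II molecules and takes them to endosomes. On the group means per kilobase it was the most abundant member. Its level was 51.1, 48.8 and 38.5 CPM in the controls and 50.7, 86.5 and 75.2 CPM in the Rnmt cKO libraries. Rnmt cKO 1 fell inside the control range while the other two stood well above it. Cd74 rose by a log2 fold change of 0.62 ± 0.26 (SE), with an adjusted p of 0.00765 in the exact test. The call rested on single libraries, since the adjusted p was 0.108 without Rnmt cKO 2 and 0.0994 without control 3, and ran from 8.31e-07 to 0.108 over all alternatives. Cd74 and H2-Aa moved by similar amounts, and the ratio of Cd74 to H2-Aa per kilobase was 5.18 ± 0.326 in controls and 4.73 ± 0.386 in Rnmt cKO libraries (SD, n = 3 in each group), with overlap.

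Ciita encodes the coactivator that class II promoters need. Low in all libraries, it gave 55, 67 and 49 control counts against 79, 160 and 111 from Rnmt cKO, which are 6.47, 6.69 and 5.41 CPM against 8.35, 13.5 and 9.95 CPM. All Rnmt cKO libraries were above all controls. Ciita rose by a log2 fold change of 0.78 ± 0.22 (SE), with an adjusted p of 0.00854 in the exact test. The adjusted p was 0.147 without Rnmt cKO 2 and 0.0836 without control 3, and the alternatives ran from 0.00245 to 0.147. Dexi overlaps Ciita on the opposite strand, and with counts that ignore strand the log2 fold change of Ciita was 0.47 with an adjusted p of 0.142. Reads on the antisense strand of Ciita numbered 12 to 23 per library.

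The genes of the peptide exchange factor H2-M did not move as 1 unit. H2-DMa encodes its alpha chain and was level, at 24.8, 23.6 and 21.4 CPM in the controls and 24.0, 23.5 and 26.6 CPM in the Rnmt cKO libraries. At a log2 fold change of 0.09 ± 0.08 (SE) its adjusted p was 0.762 in the exact test, and no alternative passed the threshold. H2-DMb2 encodes a beta chain and gave 38, 50 and 25 control counts against 65, 125 and 81 from Rnmt cKO. At 4.47, 4.99 and 2.76 CPM against 6.87, 10.5 and 7.26 CPM, its groups did not overlap. It had the largest rise among the members, with a log2 fold change of 1.01 ± 0.31 (SE) and an exact test adjusted p of 0.00364, but the adjusted p was 0.0722 without Rnmt cKO 2 and 0.0594 without control 3. H2-DMb1, the second beta chain gene, was close to the limit of the filter with 14, 12 and 8 control counts against 7, 28 and 19 from Rnmt cKO. Its log2 fold change was 0.39 ± 0.48 (SE) with an exact test adjusted p of 0.717, and this error is too wide to set it apart from no change or from the rise of H2-DMb2. Of the 75-base words of the H2-DMb1 transcripts, 15.8% also occur in H2-DMb2. Of those of H2-DMb2, 16.1% occur in other genes, H2-DMb1 among them. Reads that map to several places were not counted, so the counts of both neighbours may be too low.

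The ratio of the H2-M beta chains to H2-DMa, per kilobase, was 0.492, 0.522 and 0.339 in the controls and 0.628, 1.09 and 0.669 in the Rnmt cKO libraries. All Rnmt cKO libraries were above all controls. The ratio of H2-DMa to H2-Aa per kilobase moved the other way, from 1.28 ± 0.0862 to 0.845 ± 0.244 (SD, n = 3 in each group), again without overlap. Within a library such ratios do not depend on the scaling.

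H2-O, the inhibitor of H2-M, is known from B cells and thymic epithelium. H2-Ob encodes its beta chain and was the member that fell. Counts were 343, 510 and 423 in controls against 217, 351 and 304 in Rnmt cKO, or 40.3, 50.9 and 46.7 CPM against 22.9, 29.6 and 27.2 CPM. The groups were well apart, and even the highest Rnmt cKO library did not come near the lowest control. H2-Ob stood at a log2 fold change of -0.79 ± 0.15 (SE), a 1.73-fold lower level, and its adjusted p in the exact test was 3.47e-07. In all 15 alternatives with a test the fall held, with log2 fold changes from -0.88 to -0.67 and a largest adjusted p of 0.00492. H2-Oa encodes the alpha chain and did not pass, at 7.52, 7.29 and 4.97 CPM against 4.76, 5.06 and 6.72 CPM, with a log2 fold change of -0.25 ± 0.24 (SE) and an exact test adjusted p of 0.602. Per kilobase, the ratio of H2-Ob to H2-Oa was 1.90 ± 0.532 in controls and 1.28 ± 0.236 in Rnmt cKO libraries (SD, n = 3 in each group), with overlap. BC051537 overlaps H2-Oa on the opposite strand, and sense counts were used for both.

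Compared per kilobase of exon, the members had a wide range of levels in the controls. Cd74 led at 27.5 ± 3.99 RPKM (SD, n = 3), followed by H2-Ob at 8.55 ± 0.990 RPKM. H2-Eb1, H2-DMa, H2-Ab1, H2-Aa and H2-Oa followed at 6.79, 6.75, 6.18, 5.29 and 4.69 RPKM, with SDs of 0.495 to 1.30, so that neighbours in this order lie within their spread of each other. H2-DMb2 stood at 2.33 ± 0.667 RPKM, and H2-DMb1 and Ciita were the lowest at 0.739 ± 0.228 and 0.649 ± 0.0715 RPKM.

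In Rnmt cKO cells Cd74 again led, at 42.2 ± 10.9 RPKM, and H2-Ob dropped from the second place to 4.94 ± 0.630 RPKM (SD, n = 3). H2-Eb1 was then second at 11.7 ± 2.55 RPKM, next to H2-Ab1 at 8.99 ± 2.19 and H2-Aa at 8.97 ± 2.58 RPKM. The ratio of H2-Ob to H2-Aa per kilobase was 1.37, 1.64 and 1.88 in the controls and 0.652, 0.471 and 0.583 in the Rnmt cKO libraries. The summed level of the 10 members was 188, 198 and 161 CPM in the controls and 178, 271 and 235 CPM in the Rnmt cKO libraries, so the sum overlapped between groups while 6 of its parts passed the test in opposite directions.

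Some markers of B cells were higher in Rnmt cKO libraries beside the members that rose, and others were not. CD79a, CD20, encoded by Ms4a1, and CD22 are surface proteins that define B cells, and the summed level of their genes was 20.3, 22.8 and 20.9 CPM in the controls and 27.5, 45.6 and 32.9 CPM in the Rnmt cKO libraries, with no overlap. All 3 genes had separated groups, and Ms4a1 and Cd22 rose by 0.75 and 0.80 on the log2 scale, at an adjusted p of 0.00409 and 0.00655 in the exact test, while Cd79a was at 0.56 and 0.127. Of 17 B cell genes listed, 6 were higher and 1 was lower, with a median log2 fold change of 0.62. A log2 fold change above 0 was seen for 15 of the 17. Fcer2a, Ighd and Pou2af1 were at 0.09, 0.28 and 0.27 with overlapping groups. They did not pass, at an adjusted p of 0.911, 0.308 and 0.597 in the exact test. The number higher was 0 without Rnmt cKO 2, where 4 were higher at an unadjusted p under 0.05, 3 without control 3 and 1 without control 1. The lower gene was Ighm, the constant region gene of IgM, which was the most abundant gene of the list and fell from 319 to 199 CPM on average. Summed over all 17 genes the list was at 492 to 558 CPM in controls and lower, at 426 to 491 CPM, in Rnmt cKO libraries, and over the 15 without Ighm and Cd37, an alternative chosen after seeing the data, at 87.1 to 94.3 CPM and 106 to 166 CPM. The gate asked for TCRb and CD4 and, as listed, named no B cell protein to be left out. In bulk RNA a change in the number of cells of a type and a change in RNA per cell cannot be told apart.

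The 3 B cell markers all had separated groups, higher in Rnmt cKO, which Fcer2a, Ighd and Pou2af1 did not. Set against the 3 markers in the same library, 4 of the 5 risen members showed no separation of the groups. H2-Aa stood at 0.943 ± 0.0929 CPM per CPM of the markers in controls and at 0.96 ± 0.0509 in Rnmt cKO libraries (SD, n = 3 in each group). The same ratio was 0.29 ± 0.0295 and 0.301 ± 0.00402 for Ciita, 0.619 ± 0.0798 and 0.651 ± 0.0711 for H2-Eb1, and 2.17 ± 0.335 and 2.01 ± 0.24 for Cd74. For H2-Ab1 it overlapped as well. H2-DMb2 was higher per marker CPM in every Rnmt cKO library by a narrow margin, at 0.2197, 0.2193 and 0.132 in the controls and 0.25, 0.232 and 0.2207 in the Rnmt cKO libraries. H2-Ob stood apart, with 1.98, 2.24 and 2.24 CPM per marker CPM in the controls and 0.835, 0.65 and 0.828 in the Rnmt cKO libraries. H2-DMa and H2-Oa also lay lower per marker CPM in every Rnmt cKO library than in any control. Per CPM of the full list of 17 genes, H2-Aa, H2-Ab1, H2-Eb1, Cd74, Ciita, H2-DMa and H2-DMb2 had separated groups, higher in Rnmt cKO. H2-Ob was lower on this scale in every Rnmt cKO library than in any control. Ighm was the most abundant gene of that list and fell from a control mean of 319 CPM to 199 CPM with the deletion. Cd37 came next and averaged 125 CPM in either group. The denominator is thus mostly Ighm and Cd37. Which of the 2 denominators follows the amount of B cell RNA was not tested. The part of B cells in these results was not tested.

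**Figure D4:**
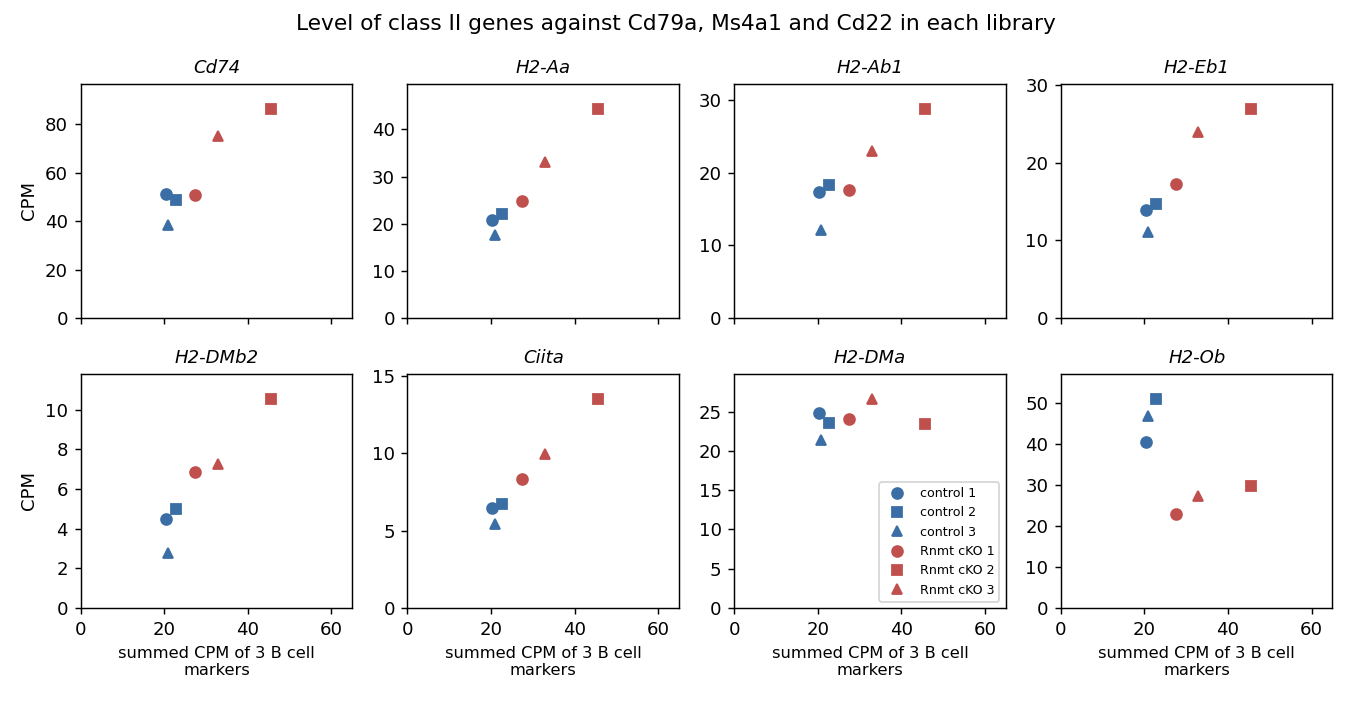
Level of 8 class II genes in CPM against the summed CPM of Cd79a, Ms4a1 and Cd22, each point a library. For Cd74, H2-Aa, H2-Ab1, H2-Eb1, H2-DMb2 and Ciita, Rnmt cKO 2 is highest on both axes and Rnmt cKO 3 is next on both. H2-DMa is level and H2-Ob is lower in Rnmt cKO libraries at higher marker levels.

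Other cells that carry class II left few reads. The defining dendritic cell genes Itgax, Flt3, Xcr1 and Siglech held 0 to 22 counts in any library, and Cd209a held 0 in all of them. Itgax, the gene of CD11c, had 5, 5 and 0 control counts against 12, 22 and 8 from Rnmt cKO. The list of 13 dendritic cell genes summed to 3.19 to 4.82 CPM in controls and 3.59 to 5.99 CPM in Rnmt cKO libraries, which overlapped, and 12 of its genes were too low to be tested. Macrophage genes summed to 7.64 to 9.72 CPM and 10.6 to 26.3 CPM, with no overlap. Of 3 genes tested the higher one was Lyz2, the lysozyme of myeloid cells, with 27, 20 and 28 counts against 49, 164 and 66 counts, a log2 fold change of 1.60 and an exact test adjusted p of 0.00123. Lyz2 was the most abundant gene of the list, at 2.00 to 3.17 CPM in controls and 5.18 to 13.8 CPM in Rnmt cKO libraries. The higher sum thus mostly follows Lyz2 and is no rise of the whole list. Csf1r and C1qa, which define macrophages more narrowly, held 1 to 29 counts, with overlapping groups. Jchain, which plasma cells express, gave 16, 10 and 13 control counts against 53, 325 and 138 from Rnmt cKO, and the neutrophil gene S100a9 at 1, 2 and 2 counts against 24, 100 and 87. The part of these cells in the class II results was not tested either.

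CIITA joins a set of DNA-bound factors on class II promoters. Of 7 genes of these factors, Rfx5, Rfxank, Rfxap, Nfya, Nfyb, Nfyc and Creb1, 0 were higher and 1 was lower, with a median log2 fold change of 0.02. The lower gene was Creb1, at -0.29, its adjusted p in the exact test 0.0481, and it was not past the threshold in the quasi-likelihood test. Without control 1, 2 of the 7 were lower, and 0 were when control 2, control 3 or either of Rnmt cKO 1 and 2 was left out. The summed level of the 7 genes was 500 to 564 CPM in controls and 468 to 485 CPM in Rnmt cKO libraries, with no overlap. Creb1 was the most abundant of them, at 241 to 303 CPM in controls and 214 to 234 CPM in Rnmt cKO libraries. The lower sum thus mostly follows Creb1 and is no fall of the whole set. Rfxap, a subunit of the RFX complex, was at 0.39 with an adjusted p of 0.0842. Among 7 known regulators of Ciita, 6 were tested and 2 were higher, which were Irf1 and Irf4 at 0.25 and 0.45 on the log2 scale, their adjusted p in the exact test being 0.0446 and 0.00586. IRF1 carries an interferon signal to the Ciita gene. No gene of these 6 was higher without control 2 or without Rnmt cKO 2, where 3 were higher at an unadjusted p under 0.05 in each case, and 1 was without control 1 or without control 3. In the quasi-likelihood test and in DESeq2 1 was higher, which was Irf4. Pax5, a factor of B cells, was at 0.43 with an adjusted p of 0.363, and Spi1, a factor of myeloid and B cells, held 3 to 19 counts and was not tested.

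Genes that cut, load and move class II did not change past the threshold. Of 11 such genes 10 were tested, with 0 higher and 0 lower by the edgeR exact test, by the quasi-likelihood test and by DESeq2, and 0 at an unadjusted exact test p under 0.05. Without Rnmt cKO 3, 1 of the 10 was lower, and no other library left out gave a call. At an unadjusted p under 0.05, 2 were higher without Rnmt cKO 1, and 1 was without control 1 or without Rnmt cKO 2. Ctss and Ctsd, proteases of the endosome, were the most abundant, at -0.17 and 0.13 on the log2 scale, and neither passed, with an adjusted p of 0.446 and 0.636 in the exact test. The median over the 10 genes was 0.12.

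Neighbours of the members in the class II region were also below the threshold. Of 6 genes tested, H2-Eb2, Psmb8, Psmb9, Tap1, Tap2 and Brd2, none passed by the exact test, the quasi-likelihood test or DESeq2, and 2 were higher at an unadjusted exact test p under 0.05. Without control 1, 2 of the 6 passed as higher. Tap1 and Psmb8 stood at 0.28 and 0.30, with an adjusted p of 0.0578 and 0.0852 in the exact test. The groups of Tap1 did not overlap. Of the 6 genes, 5 were above 0. The summed level of the list was 1026 to 1173 CPM in controls. In Rnmt cKO libraries it was 1203 to 1353 CPM, with no overlap, so these genes were not shown to be level. Brd2, which overlaps H2-DMa on the opposite strand, stood at 0.16, with 0.269 as its adjusted p in the exact test. Btnl2, a butyrophilin-like gene, was too low to be tested and gave 2, 3 and 2 control counts against 15, 12 and 7 from Rnmt cKO. Among 9 genes of class I presentation, 1 was higher, Tapbp, the peptide-loading protein tapasin, with a log2 fold change of 0.38 and an exact test adjusted p of 0.0160. It was not past the threshold without control 3, where 0 of the 9 were higher and 1 was at an unadjusted p under 0.05. The count of the 9 was also 0 when control 2 or Rnmt cKO 1 was left out, with 2 and 3 higher at that unadjusted p. H2-K1 and B2m, the chains of a class I molecule, were at 0.04 and 0.07 with adjusted p-values of 0.881 and 0.808.

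The genes most like Cd74 and H2-Aa were searched over all 12336 genes by the root mean square difference of their centred log2 CPM over the 6 libraries. Nearest to Cd74 were Spib at 0.05 and Irf8 at 0.06, both transcription factors of B cells and other antigen-presenting cells, then Lag3, 1700056E22Rik, H2-Ab1, H2-Eb1, H2-Aa and Manbal at up to 0.13. Lag3 encodes a receptor that binds class II. Spib, Irf8 and Lag3 were at means of 3.63, 11.0 and 1.26 CPM, so Lag3 was close to the filter. None of them passed the exact test, with adjusted p-values of 0.128, 0.109 and 0.401. Nearest to H2-Aa were Ciita at 0.05, H2-Eb1, Cd22, Cd74, 1700056E22Rik, Spib, Ms4a1 and AI182371 at up to 0.12. Members of the class II family were thus 3 of the 8 nearest genes to Cd74 and 3 of the 8 nearest to H2-Aa. These are differences over 6 libraries of 2 groups, given as a description.

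Within the sets of libraries that were alike in the share of reads in no gene, directions were the same for the members that passed the test. With under 40% of such reads, 1 Rnmt cKO library stood against 2 controls and the log2 ratio of mean CPM was 0.63 for H2-Aa, 0.75 for H2-Eb1, 0.59 for Cd74, 0.60 for Ciita, 0.62 for H2-DMb2 and -0.74 for H2-Ob. With 40% or more, 2 Rnmt cKO libraries stood against 1 control and these ratios were 0.98, 1.0, 0.83, 1.01, 1.66 and -0.83. This split was chosen after seeing the data, and with 1 library in an arm it gives values with no test.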

How the data were processed

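RNA was prepared with Trizol and sequenced from TruSeq libraries after Ribozero Gold depletion of ribosomal RNA. The authors aligned paired-end reads with STAR 2.5.2b to mm10 with GENCODE vM12 and deposited raw counts per gene for reads of either strand and of each strand. They also deposited an edgeR table with a log2 fold change, a log2 abundance, a p-value and an adjusted p-value, which were not used, and a normalised signal per library. The authors' deposited signal served only to choose the strand column, and sense counts were used. Lines for unmapped, multimapping and unassigned reads were kept out of library sizes.

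A gene was tested if it had over 1 CPM in 3 or more libraries. The test was the edgeR 4.0.16 exact test (R 4.3.3), two-sided, with TMM factors, tagwise dispersions and Benjamini-Hochberg adjustment over all 12336 genes. Standard errors came from log2 CPM with a prior count of 2. RPKM used union exon lengths of GENCODE vM21, which is on the same build and gave coordinates. The study describes the libraries as coming from 3 control and 3 Rnmt cKO mice. Errors are SDs or SEs between libraries, and the floor of 3 counts covers counting error only. No test was run on sums, ratios or lists.

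Alternatives were DESeq2 1.42.0 and its size factors, no scaling, other filters, the quasi-likelihood test alone, with a replicate block or with the share of reads in no gene, unstranded counts and leaving out each library. The code was tested on simulated data. The members and the gene lists were chosen with earlier results of these data known. Genes named are all members, Rnmt, defining cell type markers, at most 3 genes per direction and the 2 most abundant of each list, and the 8 nearest to Cd74 and H2-Aa. Pax5, Spi1, Rfxap, Btnl2, Brd2, Tap1, H2-Ea-ps, Cd209a, Fcer2a, Ighd, Pou2af1, Dexi and BC051537 were added after their values were seen. Of the genes on the lists, 2 are not reported here and were left out of the counts and sums over lists.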

Additional observations from a re-analysis of the deposited data

How the results depend on the processing

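Each member was refitted under up to 15 alternatives with a test. H2-Aa, H2-Eb1 and H2-Ob kept their call in all 15 of these, H2-DMa and H2-Oa passed in none of 15 and H2-DMb1 in none of 14, since it was not tested with more than 1 CPM required in all 6 libraries. No member changed sign. The adjusted p of H2-Ab1 passed without scaling beyond library size (log2 fold change 0.67) and with the share of reads in no gene as a covariate (0.57), and without single libraries it ran from 0.35 to 0.70, passing without Rnmt cKO 1. Without single libraries Cd74 ran from 0.45 to 0.81, Ciita from 0.56 to 0.92 and H2-DMb2 from 0.78 to 1.19, and each lost its call without Rnmt cKO 2 or control 3. Unstranded counts gave 0.47 for Ciita. Deviations of same-numbered libraries from their group means had correlations of -0.21, -0.02 and -0.35 over 12336 genes, so no pairing by number was seen. With 3 libraries in a group such values cannot decide whether the numbers mark pairs. With the number as a replicate block the values were 0.60 for Cd74, 0.76 for Ciita and 1.02 for H2-DMb2, none past the threshold, so 2 members were higher. Without single libraries the number of members higher ran from 2 to 6.

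Within libraries of 40% or more reads in no gene, H2-Ab1 was at 0.94 and H2-DMb2 at 1.66, and H2-DMb2 was at 0.62 in the others. Over all genes, no scaling gave 1938 higher and 535 lower genes, 78.4% of calls against 53.9%, and moved the median of all genes from 0.01 to 0.14. The replicate block gave 431 and 276, the covariate 1696 and 1466, and leaving out a library 643 to 1221 higher and 547 to 1285 lower. B cell genes that were higher numbered 3 in the quasi-likelihood test, 0 in the replicate block, with 10 at an unadjusted p under 0.05, and 0 to 6 without single libraries. The cause of these shifts was not tested. H2-DMb1, at 7 to 28 counts, is the member whose depth limits the comparison most.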

Other observations

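The nearest patterns to H2-Ob, searched in the same way as those of Cd74 and H2-Aa but chosen after its values were seen, were Ece2, Setmar, Foxp3, 2610035D17Rik, Nrp1, Pafah2, Ampd3 and Cyp2d22, at root mean square differences of 0.08 to 0.10 in centred log2 CPM over 6 libraries. None of these is a class II gene. All 8 were lower, with log2 fold changes from -0.92 for Cyp2d22 to -0.69 for Pafah2. Foxp3, the transcription factor that defines regulatory T cells, was at -0.91 with an edgeR exact test adjusted p of 1.49e-08. Nrp1, a receptor found on many of the same cells, was at -0.85 with an adjusted p of 1.94e-08 in that test. The direction follows from the choice, since H2-Ob was lower in every Rnmt cKO library, so these p-values are no separate evidence of a fall. The genes of the CD8 coreceptor also fell, Cd8a at -0.87 and Cd8b1 at -0.58 at an adjusted p of 0.0482 and 0.00288 in the exact test, with 13.5 to 23.3 CPM summed over both genes. Both calls were lost without Rnmt cKO 2, where both genes were lower at an unadjusted p under 0.05, and 1 of the 2 remained without each control in turn or without Rnmt cKO 1, and in the quasi-likelihood test and DESeq2.

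Antisense reads of the members were few. Outside Ciita and Cd74, which had 12 to 23 and 2 to 11 per library, they numbered at most 5 in any library.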
